A study of Homo sapiens with 9 samples.

Results

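NRF2, the transcription factor encoded by NFE2L2, and 9 of its antioxidant target genes were followed in the human gastrointestinal stromal tumor (GIST) line GIST-T1, called T1 below. The 10 genes were taken by symbol from a table of 61209 genes: NFE2L2, SLC7A11, GCLC, GCLM, TXNRD1, SRXN1, NQO1, HMOX1, OSGIN1 and NMRAL2P. They were selected on their measured fold changes against the control, with the results of both treatments in view, SLC7A11 and NMRAL2P because they lay on opposite sides of the control under the 2 treatments. Their levels and fold changes are therefore given as a description, with no test, and tests are kept for other genes of the pathway.

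T1 cells carry an activating KIT mutation, recorded as an exon 11 deletion (del560-79), and are sensitive to imatinib, which blocks this receptor tyrosine kinase. Bulk RNA sequencing covered 3 groups of 3 libraries: siERRα (cells transfected with siRNA against ESRRA, the gene of the estrogen-related receptor ERRα), imatinib (cells transfected with non-target siRNA and given 50 nM imatinib) and siNC (non-target siRNA alone). All cells, controls included, went through lipofection and were harvested at 48 h. The 9 libraries came from replicate platings of 1 cell line, so each p-value is set against their own spread alone, which may be technical. Both treatments were compared with the same 3 siNC libraries. The libraries were numbered 1 to 3 in siNC, 4 to 6 in siERRα and 16 to 18 in imatinib cells. What these numbers stand for is not given, and a difference tied to them cannot be told apart from the treatments.

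NRF2 is held low in unstressed cells by KEAP1, an adaptor that hands it to the CUL3 ubiquitin ligase for degradation. Oxidants and electrophiles modify KEAP1, NRF2 accumulates, pairs with a small MAF protein and binds antioxidant response elements beside its targets, where BACH1 competes for the same sites. Its targets import cystine, make and use glutathione and thioredoxin, detoxify quinones and degrade heme. NRF2 is controlled largely at the level of its protein, which was not measured here.

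The sequence that NRF2 and small MAF proteins recognise was searched for in RefSeq promoter windows (GRCh38.p14, 250 bases before to 50 bases after each annotated start), to show which of the 10 genes carry it close to a start. The core letters TGACNNNGC, read on both strands, occurred in 3 of the 9 windows of the 7 genes with an entry, and in 13.3% of all 35116 windows. SLC7A11, HMOX1 and NMRAL2P had no entry. The 3 windows belonged to GCLM and TXNRD1, and the lines below give 30 bases around 3 of the matches on the strand of the gene, with the core in capitals.
GCLM, 34 to 26 bases before the start, chr1:93909445-93909474, minus strand, core read on the opposite strand: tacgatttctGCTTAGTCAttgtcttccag
TXNRD1, 99 to 91 bases before its first start, chr12:104215670-104215699, plus strand: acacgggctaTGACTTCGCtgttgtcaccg
TXNRD1, 102 to 94 bases before its second start, chr12:104286920-104286949, plus strand, core read on the opposite strand: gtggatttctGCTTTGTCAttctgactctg
The GCLM match and the match before the second TXNRD1 start were also followed by an A, a longer form that was present in 3.18% of all windows. OSGIN1 held the AP-1 letters TGANTCA, found in 7.71% of all windows. They are shown because their 7 bases begin with the letters TGAC of the core. Read on the opposite strand, these bases and the gc before them differ from the core only by a G for the C of TGAC. That form was not searched for.
OSGIN1, 97 to 91 bases before the start, chr16:83953132-83953161, plus strand: cgggcccctgcTGACTCAcgcttatgaaag
The letters AAGGTCA, the element that ERRα recognises, were in none of the 9 windows and in 3.92% of all windows. A match is a description of the letters, and binding was not measured. Sequence outside the windows was not searched, so a gene without a match is not shown to lack the element.

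The libraries held 37527236 to 49363002 counted reads. ESRRA averaged 1.17 ± 0.356 counts per 1000000 reads (CPM, on library sizes scaled by TMM) in siERRα, 32.7 ± 2.69 CPM in imatinib and 42.1 ± 2.24 CPM in siNC libraries (SD, n = 3 each). KIT averaged 1366 CPM in siERRα, 1526 CPM in imatinib and 1305 CPM in siNC cells, and the 7 GIST markers summed to 2770 to 2990, 3020 to 3280 and 2560 to 2630 CPM in these groups. The 6 leukocyte markers summed to at most 1.08 CPM and the 4 endothelial markers to at most 3.04 CPM in any library. Of the 5 epithelial markers nearly all signal was KRT18, at 280 CPM in siERRα, 196 CPM in imatinib and 296 CPM in siNC cells, while EPCAM averaged no more than 0.175 CPM in any group. Mitochondrially encoded genes took 0.943 to 1.03% of counts in siERRα, 1.48 to 1.54% in imatinib and 0.846 to 0.989% in siNC libraries, so this share and the GIST marker sum were both highest with imatinib, and their part in the results was not tested. In bulk RNA, fewer cells expressing a gene and less RNA per cell cannot be told apart.

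Among the 10 genes, 6 had all 3 siERRα libraries above all 3 siNC libraries (NFE2L2, SLC7A11, GCLC, HMOX1, OSGIN1 and NMRAL2P), 1 had them below (TXNRD1) and 3 overlapped. Over all 16976 genes tested, 19.3% lay wholly above and 19.3% wholly below siNC in this comparison. With imatinib, 8 of the 10 genes lay wholly below siNC, GCLM and SRXN1 overlapped, and none lay wholly above, against 25.8% below and 26.2% above over all genes. By an adjusted p under 0.05, 23.9% of all genes were called in siERRα and 41.7% in imatinib cells. The median log2 fold change of the 10 genes was 0.25 in siERRα and −0.47 in imatinib cells, beside 0.0085 and 0.0023 over all genes. These shares follow in part from how the genes were picked, and nothing is read from them. NMRAL2P set both extremes of the plot of fold changes and SLC7A11 came next on each side, and both were picked for lying on opposite sides of siNC.

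**Figure D1:**
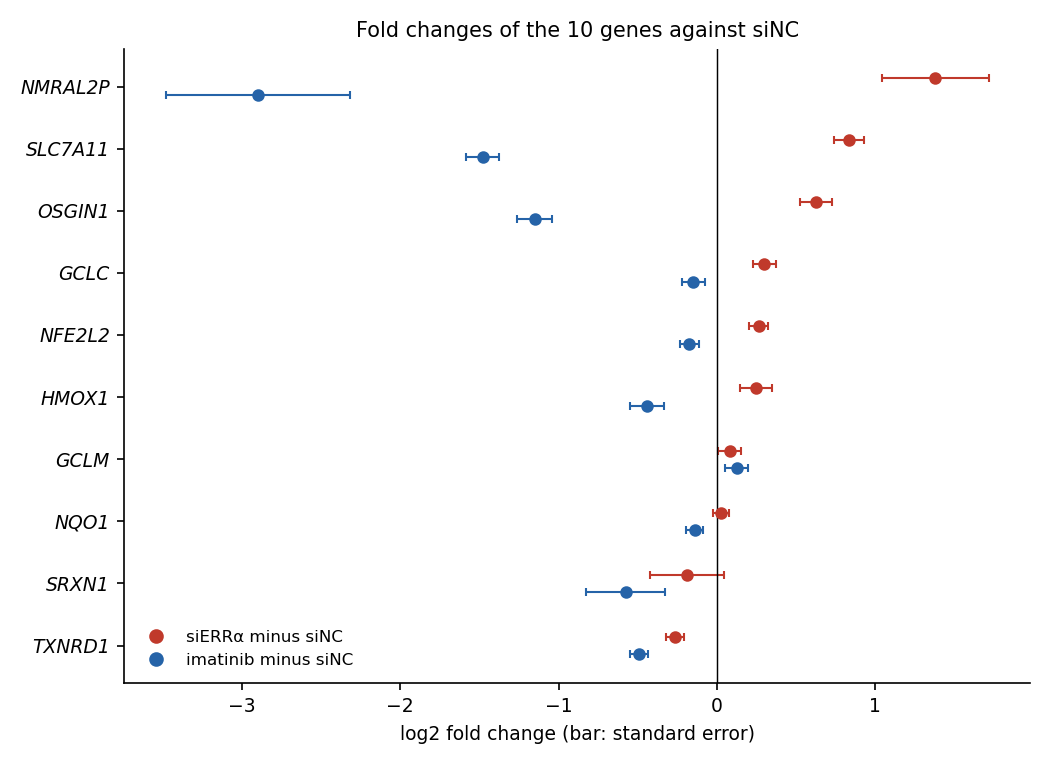
Log2 fold change against siNC (x axis, with the standard error as bar) of the 10 genes, red for siERRα and blue for imatinib cells. NMRAL2P spans the range from −2.90 in imatinib to 1.38 in siERRα cells, and SLC7A11 from −1.48 to 0.83.

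NFE2L2 itself was measured at 74.8, 80.3 and 72.9 CPM in siERRα libraries, 55.1, 57.0 and 56.3 CPM in imatinib libraries and 65.2, 59.7 and 65.1 CPM in siNC libraries. The siERRα libraries all lay above the siNC libraries and the imatinib libraries all below them, with log2 fold changes of 0.26 ± 0.061 (SE) and −0.17 ± 0.062. The mean was thus 120% of siNC after ERRα knockdown and 88.6% of siNC with imatinib, a narrow range for the regulator beside those of several targets. The gene lies on chromosome 2 (177218667 to 177392756, minus strand, GRCh38), and the annotation gives 3509 of its exonic bases to HNRNPA3 on the opposite strand as well, and 2037 to ENSG00000213963 on the same strand. ENSG00000213963 averaged 1.27 CPM in siERRα, 1.45 CPM in imatinib and 1.25 CPM in siNC cells. HNRNPA3 did not pass the test in either comparison (log2 fold change 0.10, adjusted p = 0.354 in siERRα, and −0.11, adjusted p = 0.226 in imatinib cells).

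**Figure D2:**
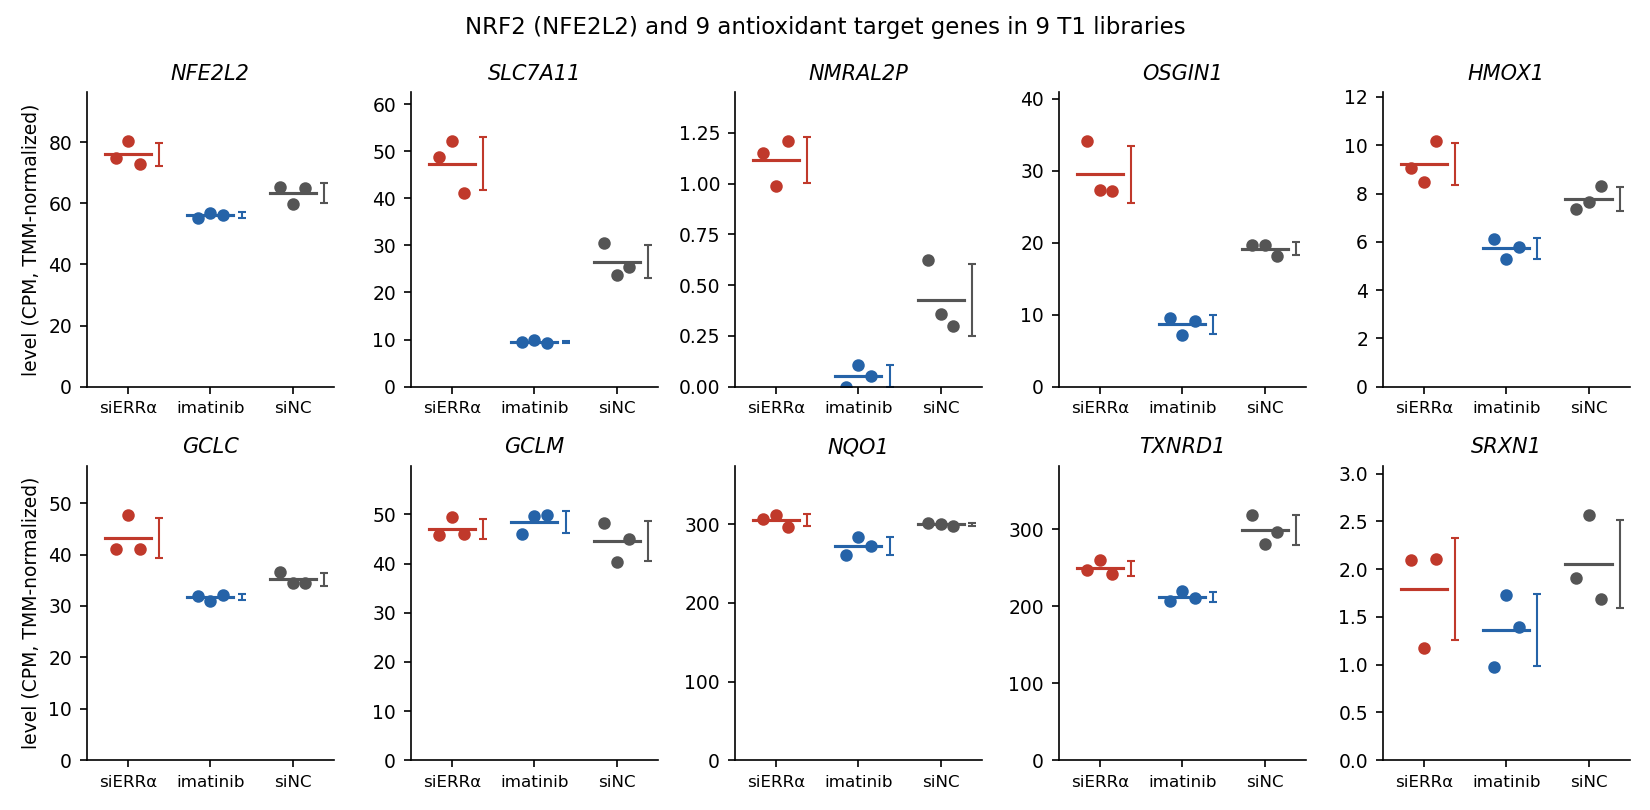
Level (CPM, y axis from 0) of each of the 10 genes in the 9 libraries, by group; points are libraries, horizontal lines are group means and the bar beside them is the SD. SLC7A11, NMRAL2P and OSGIN1 show siERRα libraries highest and imatinib libraries lowest without overlap, while GCLM and SRXN1 overlap in both comparisons.

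SLC7A11 encodes xCT, the light chain of the antiporter that brings in cystine in exchange for glutamate and so feeds glutathione synthesis. Its level was 48.7, 52.1 and 41.2 CPM in siERRα libraries, 9.41, 9.81 and 9.29 CPM in imatinib libraries and 30.5, 23.8 and 25.4 CPM in siNC libraries. The 3 groups did not overlap. The siERRα mean was 178% and the imatinib mean 35.8% of the siNC mean, with log2 fold changes of 0.83 ± 0.093 and −1.48 ± 0.10 (SE). The gene is on chromosome 4 (138164097 to 138242349, minus strand), and its antisense neighbour SLC7A11-AS1, which shares 865 exonic bases with it, reached at most 0.112 CPM in any library.

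SLC3A2, the heavy chain that carries xCT to the membrane and also serves other amino acid transporters, was tested as part of a list of 13 genes of cystine and cysteine supply. It fell to 134 ± 10.7 CPM in imatinib cells, against 262 ± 9.07 CPM in siNC cells (n = 3 libraries each, ± SD), a log2 fold change of −0.97 ± 0.060 (adjusted p = 3.59e-10, edgeR's quasi-likelihood test with Benjamini-Hochberg adjustment). In siERRα cells it averaged 294.5 ± 7.30 CPM, a log2 fold change of 0.17 with an adjusted p of 0.0471 that went above 0.05 without any 1 of siERRα replicates 1 and 3, imatinib replicate 1 and siNC replicates 1, 2 and 3 (0.0619 to 0.245). Per kilobase of exon, SLC7A11 ran at 0.107 ± 0.0141 of SLC3A2 in siERRα, 0.0475 ± 0.00513 in imatinib and 0.0672 ± 0.0092 in siNC cells. The light chain was thus low beside its partner in every group, and lowest with imatinib.

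The other genes of cystine and cysteine supply differed from siNC in both directions. Of the 10 cystine and cysteine genes tested, 5 fell and 2 rose in siERRα cells (50% and 20%, against 12.6% and 11.4% of all genes), and 3 fell and 4 rose in imatinib cells (30% and 40%, against 20.3% and 21.4% of all genes). CTH, which makes cysteine from cystathionine, fell to 1.16 ± 0.222 CPM in siERRα cells, against 3.51 ± 0.465 CPM in siNC cells (log2 fold change −1.62, adjusted p = 1.28e-06 by edgeR), and was at 3.51 ± 0.292 CPM in imatinib cells. The neutral and acidic amino acid transporters SLC1A5 (−0.70, adjusted p = 7.30e-08), SLC1A4 (−0.33, 0.000182) and SLC1A1 (−0.37, 0.00498) and the methionine synthase MTR (−0.61, 2.98e-06) fell as well in siERRα cells. MAT2A, which makes S-adenosylmethionine, rose there (0.41, adjusted p = 1.55e-05) and fell with imatinib (−0.24, 0.00155). In imatinib cells SLC1A5 fell (−0.29, 0.000591), whereas SLC1A4 (0.55, 1.40e-07), SLC1A1 (0.50, 0.000156) and the sulfurtransferase MPST (0.31, 0.00621) rose. The 4th gene to rise, AHCY, was named after its value was seen (0.18, adjusted p = 0.011), and it lost the call without imatinib replicate 3 (0.0808), siNC replicate 1 (0.0633) or siNC replicate 3 (0.0548). Leaving out 1 library kept the count of genes that rose in siERRα cells at 1 or 2, since SLC3A2 came and went.

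GCLC and GCLM encode the catalytic and the modifier subunit of glutamate-cysteine ligase, which carries out the limiting step of glutathione synthesis. GCLC was at 41.0, 47.8 and 41.1 CPM in siERRα libraries, 32.0, 31.0 and 32.2 CPM in imatinib libraries and 36.6, 34.4 and 34.6 CPM in siNC libraries. All siERRα libraries were above and all imatinib libraries below the siNC libraries, by 0.30 ± 0.070 and −0.15 ± 0.072 on the log2 scale. GCLM, by contrast, was at 45.8, 49.4 and 46.0 CPM in siERRα libraries, 46.0, 49.6 and 50.0 CPM in imatinib libraries and 48.3, 40.2 and 45.0 CPM in siNC libraries. Its groups overlapped in both comparisons (log2 fold changes 0.08 ± 0.072 and 0.12 ± 0.072), and its promoter is one of those that hold the core shown above. Mean CPM of GCLM and GCLC were 47.1 and 43.3 in siERRα, 48.5 and 31.7 in imatinib and 44.5 and 35.2 in siNC cells. Both levels were then divided by the length of all annotated exons merged (5.43 and 8.62 kb). Per kilobase of exon, the ratio of GCLM to GCLC was 1.73 ± 0.0760 in siERRα, 2.43 ± 0.136 in imatinib and 2.01 ± 0.131 in siNC cells (SD, n = 3 each). The size of the ratio depends on these lengths, which need not be those of the transcripts expressed. The ratios of the 3 groups did not overlap, with siERRα libraries at 1.64 to 1.78, imatinib libraries at 2.28 to 2.54 and siNC libraries at 1.86 to 2.10.

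Downstream of this ligase, 29 of 36 listed glutathione enzymes were tested. In siERRα cells 5 fell and 0 rose (17.2% and 0%, against 12.6% and 11.4% of all genes), and in imatinib cells 10 fell and 10 rose (34.5% each, against 20.3% and 21.4%). Of those higher in siERRα cells, 3 had an unadjusted p under 0.05 in edgeR, and 0 passed the adjusted threshold in DESeq2 or limma-voom. The median log2 fold change was 0.04 in siERRα and 0.08 in imatinib cells. Glutaredoxin GLRX fell in siERRα (−0.43, adjusted p = 0.000104 by edgeR) and in imatinib cells (−0.56, 2.40e-06). GGT7, a member of the family that splits extracellular glutathione, fell in siERRα (−0.28, 0.00685) and rose in imatinib cells (0.81, 2.62e-08). The secreted peroxidase GPX3 fell in siERRα cells (−0.25, adjusted p = 0.00897). The last 2 genes that fell in siERRα cells were GSTK1 (−0.20, 0.027) and OPLAH (−0.90, 0.0096). The call of GSTK1 was lost without siERRα replicate 2 (0.0808), siNC replicate 1 (0.0888) or siNC replicate 3 (0.0694), and that of OPLAH, named after its value was seen, without siNC replicate 2 (0.0581). Without siERRα replicate 2 the list had 8 calls in place of 5, of which 2 were higher. With imatinib the glutathione transferases GSTM3 (0.69, adjusted p = 5.53e-08) and GSTK1 (0.67, 9.09e-08) rose, while CHAC2, which degrades glutathione (−0.49, 1.35e-05), and GGT5 (−1.56, 0.000155) fell. Glutathione synthetase GSS, the enzyme after the ligase and named after its value was seen, fell with imatinib (−0.22, 0.00589) and was at 0.11 in siERRα cells (0.227). GPX4, the lipid hydroperoxidase that guards against ferroptosis, passed in neither comparison (0.16, 0.104, and 0.04, 0.662) and was also named after its values were seen.

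TXNRD1, the cytosolic thioredoxin reductase, was the member that lay below siNC in both comparisons. It was at 247, 260 and 242 CPM in siERRα libraries, 207, 220 and 211 CPM in imatinib libraries and 319, 281 and 297 CPM in siNC libraries. Means were 83.4% of siNC in siERRα and 71.0% of siNC in imatinib cells, log2 fold changes of −0.26 ± 0.057 and −0.49 ± 0.057. Both TXNRD1 windows hold the core letters searched for above. Of the 2 genes with a match to them in the windows searched, GCLM overlapped siNC in both comparisons and TXNRD1 lay below siNC in both.

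SRXN1, sulfiredoxin, repairs overoxidised peroxiredoxins. It was a low gene, at 2.10, 1.18 and 2.11 CPM in siERRα, 0.976, 1.73 and 1.39 CPM in imatinib and 1.90, 2.57 and 1.69 CPM in siNC libraries, with overlap in both comparisons. The summed counts of 238 in siERRα and 151 in imatinib against 271 in siNC libraries gave depth-scaled ratios of 0.88 and 0.677. The fitted log2 fold changes were −0.19 ± 0.23 in siERRα and −0.58 ± 0.25 in imatinib cells, and the siERRα value turned to 0.05 without siERRα replicate 2, its lowest library. Of its 2.53 kb of exon, 2292 bases belong also to a longer gene on the same strand, ENSG00000270299, which averaged no more than 0.154 CPM in any group, and how reads from shared exons were assigned is not given in the sources used here.

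Of 22 thioredoxin, peroxiredoxin and scavenging genes, all tested, 5 fell and 3 rose in siERRα cells (22.7% and 13.6%, against 12.6% and 11.4% of all genes), and 5 fell and 9 rose in imatinib cells (22.7% and 40.9%, against 20.3% and 21.4%). The shares that rose in siERRα cells and fell in imatinib cells were near those of all genes. TXNRD3, a thioredoxin-glutathione reductase, fell in siERRα cells (−0.91, adjusted p = 2.97e-06 by edgeR), alongside SESN2 (−0.29, 0.00469) and the peroxiredoxin PRDX6 (−0.22, 0.00497). Also lower there were TXNIP (−0.21, 0.0163; lost without siERRα replicate 1 or 3 or siNC replicate 1, 0.0508 to 0.0539) and SOD2, named after its value was seen (−0.16, 0.0386; lost without siERRα replicate 1 or 3 or siNC replicate 1 or 3, 0.0666 to 0.179). Sestrin SESN3 rose (0.81, 3.27e-07), as did PRDX1 (0.18, 0.0157; above 0.05 without siERRα replicate 3 or siNC replicates 2 or 3, 0.0502 to 0.10). SESN1 passed at 0.28 (0.0468) and lost the call without any 1 of siERRα replicates 2 and 3, imatinib replicates 1 and 3 and siNC replicates 2 and 3 (0.0578 to 0.226). The call was also lost by limma-voom (0.0542), with at least 10 counts in every library (0.0601) and in the fit of the 6 libraries compared (0.0527). Thinned counts (0.0896) and a replicate block (0.0694) ended it as well. In imatinib cells thioredoxin TXN itself, the substrate of TXNRD1, fell to 119 ± 7.27 CPM, against 171 ± 6.60 CPM in siNC cells (−0.52, adjusted p = 1.20e-06). SESN2 (−0.34, 0.000684), PRDX1 (−0.24, 0.000883), mitochondrial PRDX3, named after its value was seen (−0.24, 0.00305), and PRDX6 (−0.17, 0.0162; lost without imatinib replicate 1, 0.061, or siNC replicate 1, 0.0551) fell with it. Extracellular superoxide dismutase SOD3 (1.11, 2.47e-09), the thioredoxin-binding TXNIP (0.44, 8.42e-06) and catalase CAT (0.44, 1.31e-05) rose with imatinib. Without siERRα replicate 3 the siERRα count was 4 in place of 8 (3 lower, 1 higher). The count of genes that rose was also 1 without siNC replicate 2 or 3, and the count that fell was 3 without siNC replicate 1.

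NQO1, the quinone reductase often used as a readout of NRF2, was the most abundant of the 10 genes. It was at 306, 312 and 297 CPM in siERRα libraries, 261, 284 and 273 CPM in imatinib libraries and 302, 300.3 and 298 CPM in siNC libraries. The siERRα libraries overlapped the siNC libraries (log2 fold change 0.02 ± 0.051) and the imatinib libraries lay below them (−0.14 ± 0.051). HMOX1, the inducible heme oxygenase, was at 9.08, 8.46 and 10.2 CPM in siERRα, 6.13, 5.28 and 5.77 CPM in imatinib and 7.36, 7.64 and 8.32 CPM in siNC libraries. The 3 groups did not overlap, at 0.24 ± 0.10 and −0.44 ± 0.11 on the log2 scale, though the lowest siERRα and the highest siNC library were close.

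OSGIN1, an oxidative stress-induced growth inhibitor, was at 34.1, 27.3 and 27.2 CPM in siERRα libraries, 9.60, 7.17 and 9.16 CPM in imatinib libraries and 19.6, 19.7 and 18.1 CPM in siNC libraries. Its groups did not overlap, and the means were 154% of siNC in siERRα and 45.1% of siNC in imatinib cells (0.63 ± 0.10 and −1.15 ± 0.11 on the log2 scale). In order it followed SLC7A11 in the size of both differences. The annotation gives 457 of its exonic bases to MLYCD on the same strand.

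NMRAL2P, a pseudogene of NMRAL1 that is annotated as a long non-coding RNA on chromosome 3 (185959943 to 185980872, plus strand), was the scarcest of the 10 and had the widest fold changes. Its raw counts were 55, 47 and 47 in siERRα libraries, 0, 4 and 2 in imatinib libraries and 28, 14 and 15 in siNC libraries. In CPM these were 1.15, 0.989 and 1.21 in siERRα, 0, 0.108 and 0.0547 in imatinib and 0.626, 0.356 and 0.298 in siNC libraries, without overlap between groups. Summed counts of 149 in siERRα and 6 in imatinib against 57 in siNC libraries gave depth-scaled ratios of 2.62 and 0.128. The fitted log2 fold changes were 1.38 ± 0.34 and −2.90 ± 0.58. They moved to 1.77 without siNC replicate 1, the highest control, and to −3.83 without imatinib replicate 2, the highest treated library. The low-count filter needed 0.257 CPM in 3 libraries, which NMRAL2P met in the siERRα and the siNC groups and in 0 imatinib libraries, while the other 9 genes met it in all. The parent gene NMRAL1 averaged 34.5 CPM in siERRα, 43.9 CPM in imatinib and 36.3 CPM in siNC cells (log2 fold change −0.07, adjusted p = 0.524, and 0.28, 0.00457, by edgeR), so the pseudogene and its parent differed from siNC in opposite directions with imatinib.

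Ordered by level per kilobase of exon, NQO1 led in every group, at 103 CPM per kb in siERRα, 91.7 in imatinib and 101 in siNC cells, ahead of TXNRD1 (37.2, 31.7 and 44.6) and GCLM (8.68, 8.94 and 8.20). These first 3 places were separated by more than the range of the libraries in each group. Below them, in siERRα cells, OSGIN1 (5.31), NFE2L2 (5.08), GCLC (5.02), SLC7A11 (4.91) and HMOX1 (4.0) each overlapped their neighbour in the order. In imatinib cells NFE2L2 (3.75) and GCLC (3.68) overlapped, and HMOX1 (2.48), OSGIN1 (1.55) and SLC7A11 (0.985) followed without overlap. In siNC cells NFE2L2 (4.23) and GCLC (4.08) overlapped, then OSGIN1 (3.45) and HMOX1 (3.37) overlapped, and SLC7A11 (2.75) came after. SRXN1 (0.71, 0.54 and 0.812) and NMRAL2P (0.425, 0.0206 and 0.162) closed the order in all 3 groups. The place of SRXN1 rests on its full exon length, of which 2292 bases are shared with ENSG00000270299. How reads from those bases were assigned is not given, so its level per kilobase may be too low. Per kilobase of exon, SLC7A11 thus stood near NFE2L2 and GCLC in siERRα cells and far under them in imatinib cells. The order between genes depends on the merged exon lengths, 14.975 kb for NFE2L2, 8.618 kb for GCLC and 9.645 kb for SLC7A11. In CPM, NFE2L2 averaged 76.0, SLC7A11 47.3 and GCLC 43.3 in siERRα cells.

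The genes whose pattern over the 9 libraries was nearest to that of SLC7A11 were sought among all genes averaging at least 1 CPM, by the root mean square difference of centred log2 CPM. They were CCDC68 (0.0908), GCNT2 (0.125), TRIB1 (0.146), TNFSF18 (0.199) and DNAH5 (0.212), beside a root mean square of 0.96 for SLC7A11 itself. None of the other 9 genes was among these 5, and NMRAL2P could not be, because it averaged under 1 CPM over the 9 libraries. CCDC68 averaged 93.9 CPM in siERRα, 18.4 CPM in imatinib and 51.1 CPM in siNC cells, and TRIB1 averaged 70.2, 15.9 and 46.8 CPM in the same groups. For NMRAL2P, with its few counts, the nearest were KCNJ15 (0.626), KIAA0087 (0.639), ENSG00000254645 (0.647), SLC7A11 (0.669) and CCDC68 (0.684), beside 1.53 for NMRAL2P itself. SLC7A11 was thus among the 5 nearest to NMRAL2P, and both were picked by these same values.

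Among the genes that control NRF2 or pair with it, the small MAF genes MAFF and MAFG and the KEAP1-binding SQSTM1 had the smallest adjusted p. Of 16 tested (NFE2 was too low), 2 fell and 3 rose in siERRα cells (12.5% and 18.8%), and 7 fell and 2 rose in imatinib cells (43.8% and 12.5%). Those shares stand beside 12.6% lower and 11.4% higher over all genes in siERRα cells, and 20.3% and 21.4% in imatinib cells. The median log2 fold change was 0.00069 in siERRα and −0.17 in imatinib cells.

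**Figure D3:**
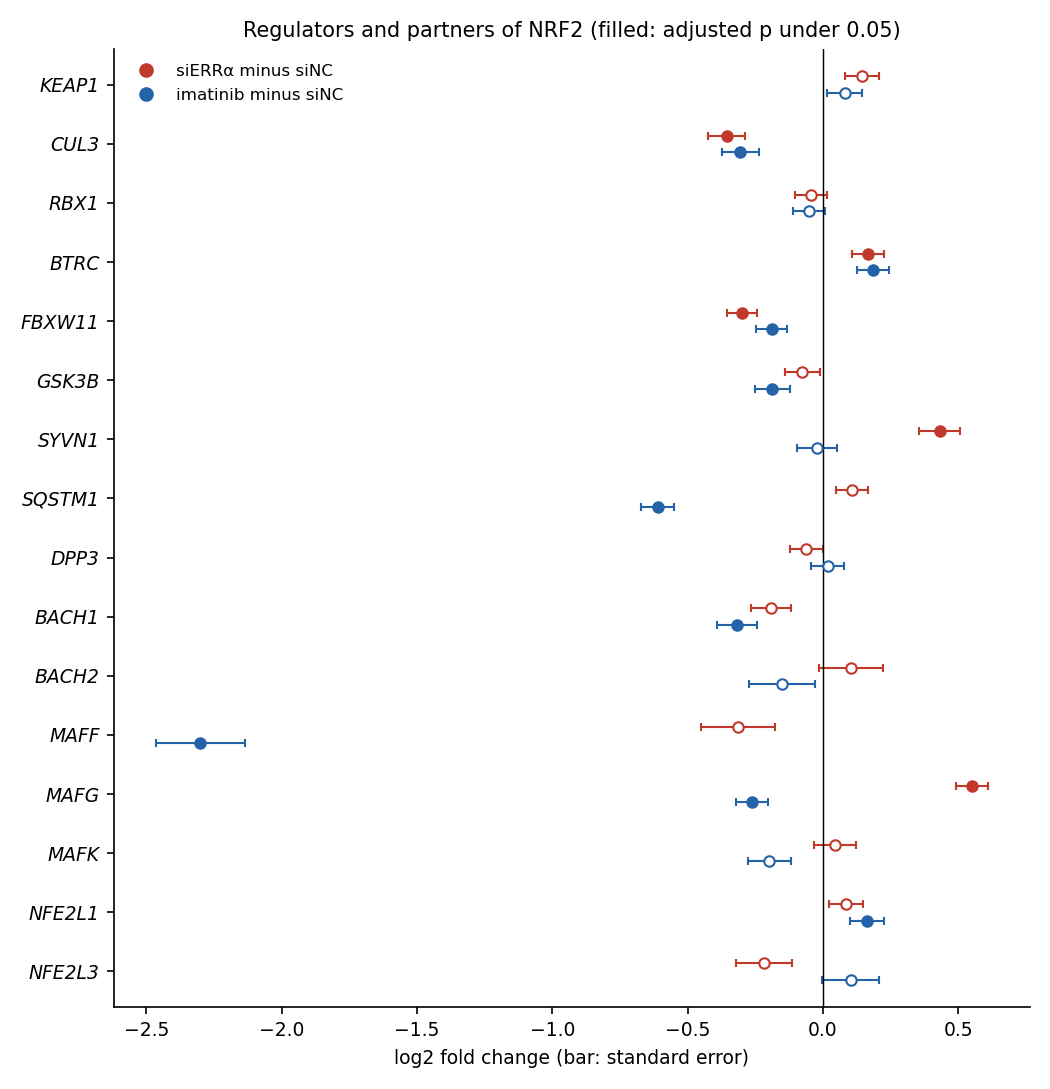
Log2 fold change against siNC (x axis, with the standard error as bar) of 16 regulators and partners of NRF2, red for siERRα and blue for imatinib cells; filled points have an adjusted p under 0.05 in edgeR's quasi-likelihood test. MAFF with imatinib stands apart at −2.30, and MAFG lies at 0.55 in siERRα and −0.26 in imatinib cells.

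In the arm that degrades NRF2, KEAP1 passed in neither comparison, with 124 ± 5.43 CPM in siERRα, 118.5 ± 4.33 CPM in imatinib and 112 ± 9.25 CPM in siNC cells (log2 fold changes 0.15, adjusted p = 0.108, and 0.08, 0.336, by edgeR). It passed in siERRα cells only without siERRα replicate 2 or siNC replicate 2 (lowest adjusted p 0.0273). The scaffold CUL3 fell to 70.3 ± 6.70 CPM in siERRα and 72.9 ± 2.04 CPM in imatinib cells, against 90.0 ± 5.02 CPM in siNC cells (−0.36, 0.000806, and −0.30, 0.00148). RBX1, the ring subunit of that ligase, was at −0.04 (0.66) and −0.05 (0.531). The F-box proteins BTRC and FBXW11, which serve a second, KEAP1-independent route to NRF2 degradation, went opposite ways: FBXW11 fell in siERRα (−0.30, 0.000581) and imatinib cells (−0.19, 0.0107), and BTRC rose in both (0.17, 0.0488, and 0.19, 0.0172). The siERRα call of BTRC was lost in 8 of the 9 fits with 1 library left out (up to 0.178), all but the fit without siERRα replicate 1, and its imatinib call without siNC replicate 2 (0.0692) or 3 (0.05). GSK3B, the kinase that marks NRF2 for that route, fell with imatinib (−0.19, 0.027; lost without imatinib replicate 2 or 3 or siNC replicate 1 or 3, 0.055 to 0.118) and was at −0.08 (0.447) in siERRα cells. SYVN1, another ubiquitin ligase of NRF2, rose in siERRα cells (0.43, 0.000279) and was at −0.02 (0.847) with imatinib.

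SQSTM1, the autophagy receptor p62 that draws KEAP1 away from NRF2 and is itself an NRF2 target, fell to 361 ± 21.5 CPM in imatinib cells, against 551 ± 33.8 CPM in siNC cells (log2 fold change −0.61, adjusted p = 1.38e-07 by edgeR), and averaged 593 ± 22.1 CPM in siERRα cells (0.11, 0.215). DPP3, another protein that binds KEAP1, was near 0 in both comparisons (−0.06, 0.524, and 0.02, 0.841). Of the DNA-binding partners, MAFG rose to 68.2 ± 2.21 CPM in siERRα cells and fell to 38.9 ± 0.767 CPM in imatinib cells, against 46.6 ± 1.15 CPM in siNC cells (0.55, 1.45e-06, and −0.26, 0.00169). MAFF fell to 1.49 ± 0.535 CPM in imatinib cells, against 7.39 ± 0.0700 CPM in siNC cells (−2.30, 2.51e-09), and averaged 5.95 ± 0.398 CPM in siERRα cells (−0.31, 0.106). MAFK passed in neither comparison (0.05, 0.734, and −0.20, 0.0523). The competitor BACH1 fell with imatinib (−0.32, 0.00187) and was at −0.19 (0.068) in siERRα cells, and BACH2 passed in neither (0.10, 0.59, and −0.15, 0.347). Of the NRF2 relatives, NFE2L1 passed with imatinib at 0.16 (0.0439) and lost the call without any 1 of siERRα replicates 1 and 3, imatinib replicate 1 and the 3 siNC replicates (0.0507 to 0.257), and NFE2L3 passed in neither (−0.22, 0.15, and 0.10, 0.461). BTRC and NFE2L1 were the only 2 genes of the list that rose with imatinib, and neither did without siNC replicate 2 or 3. Without siERRα replicate 2 or siNC replicate 2, 4 genes in place of 2 fell in siERRα cells, BACH1 and NFE2L3 beside CUL3 and FBXW11.

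A further 34 genes known as NRF2 targets, 28 of them tested, were counted to see how far the 10 genes stood for the wider set. In siERRα cells 10 rose and 2 fell (35.7% and 7.14%, against 11.4% and 12.6% of all genes), with a median log2 fold change of 0.19 and 22 of 28 values above 0. In imatinib cells 9 fell and 6 rose (32.1% and 21.4%, against 20.3% and 21.4% of all genes), with a median of −0.16. The siERRα count rested in part on single libraries: 7 genes in place of 12 passed without siERRα replicate 3, and 6 in place of 10 rose without siNC replicate 3. Over all genes, those that rose numbered 1931 with every library and 1163 without siNC replicate 3. This list shares genes with the glutathione (GSR), thioredoxin (TXN, PRDX1), heme (FTL, SLC40A1, FECH) and ferroptosis (AIFM2) lists, among others. Such genes are counted in each list, so the counts are not independent.

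The ubiquitin ligase TRIM16 rose to 14.9 ± 0.299 CPM in siERRα cells and fell to 7.40 ± 0.355 CPM in imatinib cells, against 10.2 ± 0.444 CPM in siNC cells (log2 fold changes 0.55, adjusted p = 5.07e-05, and −0.46, 0.000297, by edgeR). PIR, a nuclear protein named after its values were seen, rose in siERRα cells (0.25, 0.00603) and fell with imatinib (−0.20, 0.016; lost without siNC replicate 1, 0.0818). Of the pentose phosphate pathway genes named after their values were seen, PGD (0.24, 0.00166) and TKT (0.20, 0.012) rose in siERRα cells, TKT not without siERRα replicate 3 (0.0932), siNC replicate 1 (0.0719) or siNC replicate 3 (0.0976), and TALDO1 was at 0.06 (0.472). Malic enzyme ME1, a source of NADPH, fell in siERRα cells (−0.26, 0.015; lost without siERRα replicate 1 or 3 or siNC replicate 1, 0.054 to 0.0817) and in imatinib cells (−0.52, 1.31e-05). The other gene that fell in siERRα cells was the aldehyde dehydrogenase ALDH3A1, at 0.642 ± 0.0095 CPM, against 1.12 ± 0.188 CPM in siNC cells (−0.80, 0.0252), and it too lost the call without siERRα replicate 1 or 3 or siNC replicate 1 or 2 (0.0549 to 0.0866). None of the 28 genes fell in siERRα cells without siERRα replicate 1, siERRα replicate 3 or siNC replicate 1, and 1 did without siNC replicate 2. With imatinib TXN, described above, and AIFM2, a suppressor of ferroptosis (−0.54, 1.41e-05), fell, while the iron exporter SLC40A1 (0.71, 1.17e-07) and the last enzyme of heme synthesis, FECH (0.60, 2.65e-05), rose. The epoxide hydrolase EPHX1 rose in both comparisons (0.31, 0.00134, in siERRα and 0.38, 0.000112, in imatinib cells), as did SLC40A1 (0.30, 0.00278, in siERRα cells).

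SLC7A11 is also a textbook target of ATF4, the transcription factor of amino acid shortage, so a list of ATF4 and its targets was counted beside it (21 of 22 tested). It shares SLC3A2, SESN2 and CHAC1 with lists above, so these genes are counted in each. In imatinib cells 15 fell and 3 rose (71.4% and 14.3%, against 20.3% and 21.4% of all genes), with a median log2 fold change of −0.37. In siERRα cells 3 fell and 4 rose (14.3% and 19%, against 12.6% and 11.4% of all genes), with a median of 0.05. With imatinib the smallest p among those that fell were those of ATF3 (−2.50, adjusted p = 1.74e-13 by edgeR), DDIT3 (−1.71, 3.23e-09) and SLC3A2, described above, while VLDLR (0.83, 8.40e-07), ALDH1L2 (0.74, 1.63e-06) and PHGDH (0.32, 0.000402) rose. ATF4 itself, named after its values were seen, fell with imatinib (−0.19, 0.0106) and was at 0.04 (0.699) in siERRα cells. In siERRα cells ATF3 (−0.68, 2.13e-06), VLDLR (−0.71, 3.35e-05) and SESN2 fell, and the amino acid transporter SLC7A5 rose (0.33, 0.000923). The other 3 genes that rose in siERRα cells were SLC3A2, ATF5 (0.26, 0.0368) and PSPH (0.19, 0.0462). ATF5 lost its call without siERRα replicate 1 or 3, imatinib replicate 3 or any 1 siNC replicate (0.0592 to 0.239), and PSPH lost its call in 8 of the 9 fits with 1 library left out, all but that without imatinib replicate 1 (up to 0.203). Without siERRα replicate 3, siNC replicate 1 or siNC replicate 3 the siERRα count was 4 in place of 7.

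**Figure D4:**
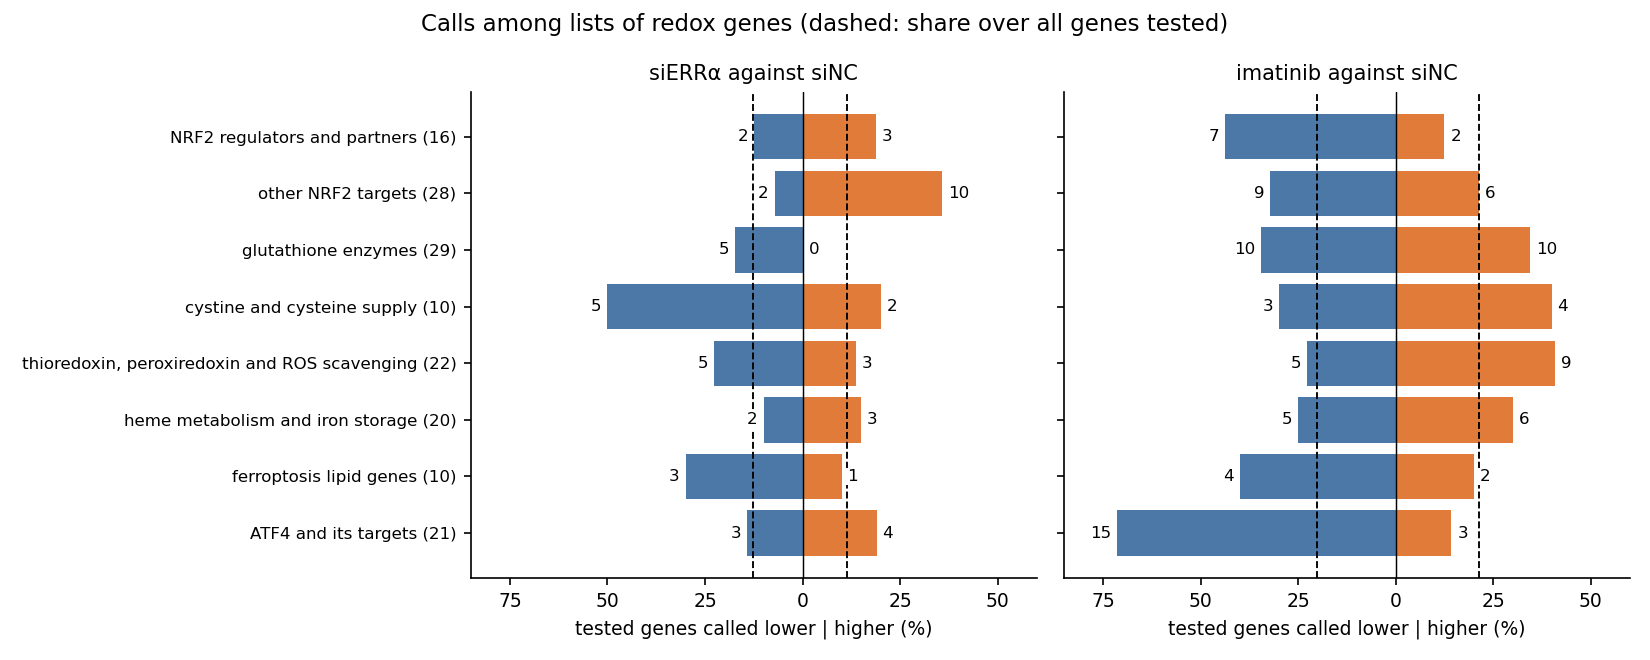
Share of tested genes called lower (bars to the left) and higher (bars to the right) in 8 lists of redox genes, in percent, for siERRα against siNC and imatinib against siNC; the number beside a bar is the count of genes, the number in brackets is the number tested, and dashed lines are the shares over all genes tested. The other NRF2 targets reach 35.7% higher in siERRα cells, and ATF4 and its targets reach 71.4% lower in imatinib cells. The lists share some genes, which are counted in each.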

How the data were processed

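Gene expression was measured by bulk RNA sequencing of poly(A) RNA in 9 GIST-T1 libraries. The submitters' processing notes name GRCh38, STAR 2.7.3a and featureCounts 2.0.1. What the authors deposited is a table of whole read counts per gene symbol, without normalization. Neither the annotation release nor whether counting used strand is given in the sources used here. Counts were tested with edgeR 4.0.16 (R 4.3.3): TMM scaling, filterByExpr by group (minimum count 10, minimum total 15; 16976 of 61209 genes kept), 1 robust quasi-likelihood fit over all 9 libraries, and contrasts of siERRα and of imatinib with siNC. A gene was called at a Benjamini-Hochberg adjusted p under 0.05 over all genes tested. The standard error is the log2 fold change divided by the root of the F statistic. Levels are CPM on TMM-scaled library sizes. The counts of replicate libraries differed by more than sampling noise (chi-square per degree of freedom 3.77 to 16.5), so each counted once.

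Positions and exon lengths come from GENCODE 44 (60473 of 61209 symbols matched), and promoter windows from RefSeq. The exon length of a gene merges all its annotated exons. The 10 genes and all lists were chosen with earlier results of these data known. Named genes are the 10, ESRRA, all regulators, and per list, comparison and direction the 3 called genes with the smallest p, beside the 5 genes nearest in pattern to SLC7A11 and to NMRAL2P; exceptions are stated, and some genes the rule names are not reported here. The fit was tested on simulated data. Alternatives were DESeq2 size factors, the DESeq2 1.42.0 Wald test, limma-voom (limma 3.58.1), no filter, at least 10 counts in every library, only the 6 libraries compared, counts thinned to the smallest total, a replicate block and leaving out each library.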

Additional observations from a re-analysis of the deposited data

How the results depend on the processing

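Of the 20 fold changes of the 10 genes, 17 kept their direction and moved by less than the replicate spread under every alternative. The exceptions were NMRAL2P in both comparisons (1.15 to 1.77 in siERRα and −3.83 to −2.34 in imatinib cells with 1 library left out) and SRXN1 in siERRα cells (−0.328 to 0.0454, reversed at 0.0454 without siERRα replicate 2). Of 127 fold changes of other named genes, 96 kept direction and call throughout. Reversals with 1 library left out were limited to values near 0 with imatinib, SYVN1 (−0.0624 without imatinib replicate 1 to 0.0459 without imatinib replicate 2) and DPP3 (−0.018 to 0.0755, at −0.015 without siNC replicate 3 and −0.0092 without siNC replicate 1). Requiring a log2 fold change of at least 0.5 beside the adjusted p left 1233 genes in siERRα and 2988 in imatinib cells, in place of 4064 and 7072. The number of other NRF2 targets called in siERRα cells ran between 7 and 13 with 1 library left out. The cause was not tested in any of these. On values centred within each group, correlations of same-numbered libraries ran between −0.287 and 0.275, and of others between −0.311 and 0.23. These ranges cannot exclude a pairing by replicate number, and the main fit used none. With the replicate block, 3652 genes were called in siERRα and 6764 in imatinib cells, NRF2 regulators numbered 4 and 8 and other NRF2 targets 11 and 15. The counts of the glutathione, cystine, thioredoxin, heme, ferroptosis and ATF4 lists were added to these alternatives after seeing the data. Calls near the threshold that at least 1 setting other than leaving out a library ended were, in siERRα cells, BTRC (highest adjusted p 0.0958, the same quantity for the rest), SLC3A2 (0.075), SESN1 (0.0896), ATF5 (0.0511), PSPH (0.074), SOD2 (0.118) and, by the block alone, GSTK1 (0.054), and in imatinib cells NFE2L1 (0.0621), POR (0.0678) and LPCAT3 (0.0605). Values that passed only under some of them were BACH1 (lowest adjusted p 0.0419) and MAFF (0.0266) in siERRα and MAFK (0.0414) in imatinib cells. Small counts that moved by over 1.5 times were, among genes that rose in siERRα cells, cystine genes (1 in place of 2 with no filter, with at least 10 counts in every library, with thinned counts or with the block), ATF4 genes (2 in place of 4 with the same filters or the block), ferroptosis genes (2 in place of 1 by limma-voom) and glutathione enzymes (1 in place of 0 with thinned counts). NRF2 regulators that fell there were 4 in place of 2 in the fit of 6 libraries. With imatinib, regulators that rose were 1 in place of 2 by both DESeq2 alternatives, with no filter or with the block, and ferroptosis genes that rose were 0 with no filter and 1 with the block in place of 2. With 3 libraries a group and few counts, SRXN1 and NMRAL2P are the least precise of the 10 genes.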

Other observations

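Heme and iron genes around HMOX1 were counted as a further list. Of 20 tested, 2 fell and 3 rose in siERRα cells (10% and 15%, against 12.6% and 11.4% of all genes), and 5 fell and 6 rose in imatinib cells (25% and 30%, against 20.3% and 21.4%). The shares were near those of all genes in siERRα cells and somewhat above them in imatinib cells, and nothing is read from them. FTL, SLC40A1 and FECH are counted among the other NRF2 targets as well. The heme exporter FLVCR1 fell to 18.8 ± 1.35 CPM in siERRα cells, against 35.4 ± 0.652 CPM in siNC cells (n = 3 libraries each, ± SD), a log2 fold change of −0.92 (adjusted p = 1.91e-08 by edgeR), and biliverdin reductase BLVRA, which acts on the product of HMOX1, fell as well (−0.42, 0.000302). CPOX, an enzyme of heme synthesis, rose there (0.36, 0.00327). The light chain of ferritin, FTL, rose in siERRα cells (0.19, 0.0161; lost without siERRα replicate 1, 0.0821, or siNC replicate 3, 0.156) and fell with imatinib (−0.36, 2.77e-05). Along the heme synthesis pathway in imatinib cells, the first enzyme ALAS1 fell to 45.4 ± 2.51 CPM, against 83.7 ± 3.52 CPM in siNC cells (−0.88, 2.89e-09), while ALAD (0.78, 1.77e-07) and FECH (0.60, 2.65e-05) rose. The iron regulatory protein gene IREB2 (−0.25, 0.00306) and the transferrin receptor gene TFRC (−0.24, 0.0118), named after their values were seen, fell with imatinib. Without siERRα replicate 2, 8 genes in place of 5 passed in siERRα cells.

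Of 12 lipid genes of ferroptosis, 10 were tested. In siERRα cells 3 fell and 1 rose (30% and 10%, against 12.6% and 11.4% of all genes), and in imatinib cells 4 fell and 2 rose (40% and 20%, against 20.3% and 21.4%). The shares that rose were near those of all genes in both comparisons. PTGS2, cyclooxygenase-2, fell to 146 ± 8.75 CPM in siERRα and 24.2 ± 2.6 CPM in imatinib cells, against 216 ± 21.1 CPM in siNC cells (−0.57, adjusted p = 2.27e-05, and −3.16, 1.55e-14, by edgeR). The polyamine acetyltransferase SAT1 fell in both (−0.60, 0.000125, and −1.63, 6.34e-10). ACSL4, which loads polyunsaturated fatty acids onto coenzyme A, fell with imatinib (−0.61, 9.18e-06), beside AIFM2. GCH1 fell in siERRα cells (−0.24, 0.0251; lost without siERRα replicate 1 or 3 or siNC replicate 1 or 3, 0.0539 to 0.123). The reductase POR rose in siERRα cells (0.30, 0.000842), and 2 genes rather than 1 rose there without siERRα replicate 2 or siNC replicate 2. With imatinib POR (0.16, 0.0326) and LPCAT3 (0.21, 0.021) rose, and neither did without imatinib replicate 3, siNC replicate 1 or siNC replicate 3 (0.077 to 0.19), nor POR without imatinib replicate 2 (0.0554).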
